A study of Mus musculus with 6 samples.

Results

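The class II odorant receptors of mouse chromosome 7 were taken as the genes numbered Olfr291 to Olfr310, Olfr467 to Olfr542 and Olfr693 to Olfr716. This rule found 94 of the 21881 gene symbols measured, and 94 of the 1122 odorant receptor symbols. RNA sequencing was done on the olfactory epithelium, the odor-sensing tissue of the nasal cavity, of NMRI mice. Animals were wild type (WT) or NKCC1-/- (KO), without a working copy of the sodium, potassium and chloride cotransporter that Slc12a2 encodes. Each genotype had 3 libraries, each from pooled epithelia. Mixed pools combined 2 epithelia from males with 2 from females, and single-sex pools combined the epithelia of 3 mice. The labels give no ages, no cell sorting and no restriction of the deletion to a tissue, and they do not say whether an animal entered more than 1 pool. Values are FPKM, fragments per kilobase of transcript, relative to the fragments of the library. Comparing KO with WT asks how each receptor transcript differs when the transporter is missing.

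Odorant receptors are G protein-coupled receptors in the cilia of olfactory sensory neurons, where they bind odorants and start the cyclic AMP cascade that opens ion channels. A mature neuron expresses a single receptor gene, usually from a single allele, so the amount of a receptor's RNA in the whole tissue depends on how many neurons chose it and on how much RNA each of them holds. In a bulk sample, fewer neurons and less RNA per neuron cannot be told apart. NKCC1 loads olfactory neurons with chloride, which leaves the cilia during the odor response and adds to the current. Class I receptors, which resemble those of fish, lie together on chromosome 7, while class II receptors, the larger class of land vertebrates, are spread over many chromosomes.

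All 94 genes were listed as protein coding on chromosome 7 in the RefSeq gene table for the mouse genome. The longest open reading frames of their GENCODE M21 transcripts ran from 915 to 1071 bases. The class was checked by sequence. For 92 of the genes, the most similar class I receptor shared at most 57.7% of coding bases, and the most similar receptor outside class I shared at least 60.5%. Olfr503 and Olfr504 went against the label. Olfr503 was 97.1% identical to the class I receptor Olfr658, and Olfr504 was 95.6% identical to the class I receptor Olfr657. Both were listed at 0 FPKM in all 6 libraries, so they add nothing to the levels below. The next lines show why Olfr503 is read as a class I sequence, with coding bases 459 to 518 of both genes and, in capitals, the 4 bases of Olfr658 that differ.
Olfr503: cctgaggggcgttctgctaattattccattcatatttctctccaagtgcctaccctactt
Olfr658: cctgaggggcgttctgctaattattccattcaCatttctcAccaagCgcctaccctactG

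Near-identical receptors can exchange sequencing fragments, which affects Olfr291, among the receptors with the largest falls. Olfr291 and its neighbour Olfr290, which lies outside the number ranges, were 96.9% identical. Their aligned stretches below (coding bases 564 to 623 of Olfr291 and 558 to 617 of Olfr290) are the 60 ungapped bases with the most differences, and capitals mark the 6 bases of Olfr290 that differ.
Olfr291: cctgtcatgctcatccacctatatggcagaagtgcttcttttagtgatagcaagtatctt
Olfr290: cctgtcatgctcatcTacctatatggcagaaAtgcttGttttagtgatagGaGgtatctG
In all, 10 of the 94 genes had a receptor of at least 95% identity elsewhere, and 6 of these 10 were expressed highly enough to be tested. Of all windows of 101 bases in the Olfr291 coding sequence, 15.5% occurred unchanged in the coding sequence of another receptor. That share was 7.42% for Olfr533 and 0% for Olfr297 and Olfr706, and 58 of the 94 genes shared no such window. Only receptor transcripts annotated as protein coding were searched, without their untranslated parts.

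Receptor expression was uneven. A total of 59 genes were above 0 in all 6 libraries, 53 averaged 1 FPKM or more, and 4 averaged 10 FPKM or more. Testing required a mean of at least 0.5 FPKM, which 68 genes met and 26 did not. The means on both sides of that limit were 0.501 and 0.498 FPKM. Olfr474, Olfr503 and Olfr504 were listed at 0 throughout. A single fragment was worth an estimated 0.429 and 0.378 FPKM in the WT and KO mixed pools, against 0.111 to 0.140 FPKM in the other 4 libraries. Low values in the mixed pools therefore rest on few fragments. In the mixed, male and female pools, 9, 11 and 15 of the 94 genes were listed at 0 in WT and 21, 12 and 8 in KO. The shallower WT pool thus had fewer zeros than the other WT pools, while the shallower KO pool had the most zeros of all.

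The 4 most abundant receptors of the set were the same and in the same order of mean level in both genotypes, namely Olfr533, Olfr309, Olfr536 and Olfr541. Olfr533, Olfr309 and Olfr536 together held 32.0 to 42.3% of the summed FPKM of the 94 genes in the WT libraries and 32.3 to 35.4% in the KO libraries. Olfr533 and Olfr536 lie in the same gene group and are close relatives. Over coding bases 580 to 639, with capitals marking differences from Olfr533, Olfr530 differed at 7 bases and Olfr536 at 8.
Olfr533: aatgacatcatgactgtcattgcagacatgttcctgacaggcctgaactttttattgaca
Olfr530: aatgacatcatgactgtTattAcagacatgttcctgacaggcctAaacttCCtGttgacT
Olfr536: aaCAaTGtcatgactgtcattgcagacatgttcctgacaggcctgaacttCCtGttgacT

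Of the 68 tested receptors, 4 were lower in KO after adjustment over all 15067 genes tested (limma, adjusted p under 0.05), against 0.624% of all tested genes. None was higher in KO, against 0.212% of all tested genes. At an unadjusted p under 0.05, 29 receptors were lower and 2 were higher, where 4.62% and 4.26% of all tested genes were. In 25 receptors (36.8%) every KO library lay below every WT library, against 5.24% of all tested genes. Among the 747 other tested receptors, those in neither class I nor the set, that share was 38.8%. In 1 receptor, Olfr524, every KO library lay above every WT library, against 7.46%. The log2 change was negative for 55 and positive for 13 receptors, and it was negative for 47.9% of all tested genes. The 4 receptors past the threshold were Olfr291, Olfr297, Olfr533 and Olfr706, and they are described first. Without the expression limit, none of the 4 passed (91 receptors tested). The libraries were pools, so each p-value measures the spread between these pools. Each log2 change is the difference between group means of log2(FPKM + 1), which understates the change of low genes.

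Olfr291 and Olfr297 had the largest falls, and which of them fell more depended on the pseudocount and on the libraries included. In WT the level of Olfr291 was 21.8 (mixed), 11.4 (male) and 5.61 (female) FPKM, and in KO it was 1.48, 1.24 and 1.123 FPKM in the same order. The KO pools were alike and all lay below the lowest WT pool, while the WT pools spanned a wide range. The log2 change was -2.44 ± 0.38 (SE, n = 3 libraries per genotype, limma adjusted p = 0.00861). Olfr291 ranked 6 of the 94 genes by mean level in WT and 34 in KO. Its near-copy Olfr290 stood at 14.6, 11.5 and 5.51 FPKM in WT and 5.75, 2.29 and 3.16 FPKM in KO, a log2 change of -1.26 ± 0.36 (limma adjusted p = 0.172). Fragments shared between both genes could have been assigned to either, so the split of the fall between them is uncertain. Without the KO female pool, the adjusted p of Olfr291 was 0.0889.

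Olfr297 also fell, and it shared no read-length window with the coding sequence of another receptor among those searched. Its level was 12.2, 10.8 and 5.39 FPKM in the mixed, male and female WT pools and 0.386, 1.401 and 1.34 FPKM in the KO pools. The groups were far apart, with the highest KO pool below the lowest WT pool. The value in the KO mixed pool was close to the estimated 0.378 FPKM of a single fragment there. Without that pool the adjusted p of Olfr297 was 0.0387 (limma). The log2 change was -2.33 ± 0.33 (limma adjusted p = 0.00543), and Olfr297 ranked 8 by mean level in WT and 42 in KO. Its nearest relative, Olfr295, is 90.2% identical, and its levels were 2.35, 2.38 and 0.449 FPKM in WT and 0.799, 0.120 and 0.693 FPKM in KO. The genotypes overlapped in Olfr295, whose log2 change was -0.75 ± 0.32 (limma adjusted p = 0.499).

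Olfr533, the most abundant receptor of the set in every library, stood at 86.1, 88.4 and 58.8 FPKM in WT and 25.02, 26.0 and 34.2 FPKM in KO. The genotypes did not overlap, and the female pools were the closest pair. The log2 change was -1.41 ± 0.24 (limma adjusted p = 0.0146). Libraries had been treated with duplex-specific nuclease, which digests abundant double strands first, so differences between abundant transcripts may be compressed. The call was lost when the WT male, the KO mixed or the KO male pool was left out (highest adjusted p = 0.0831). Olfr530, the close relative shown above, had 3.53, 3.45 and 3.44 FPKM in WT and 2.75, 0.899 and 1.19 FPKM in KO. The KO pools of Olfr530 lay below the WT pools, with a log2 change of -0.84 ± 0.28 (limma adjusted p = 0.288).

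Olfr706 had 7.81, 5.78 and 5.55 FPKM in the mixed, male and female WT pools and 0.719, 2.52 and 1.401 FPKM in the KO pools. The genotypes did not overlap, and the WT pools were close to each other. The KO mixed value rests on few fragments, since a single fragment was worth an estimated 0.378 FPKM there. Its log2 change was -1.58 ± 0.30 (limma adjusted p = 0.0280). The call was lost without the WT male, the KO mixed or the KO female pool (highest adjusted p = 0.178). The plot of named receptors by library shows the separation of the genotypes for these 4 receptors.

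**Figure D1:**
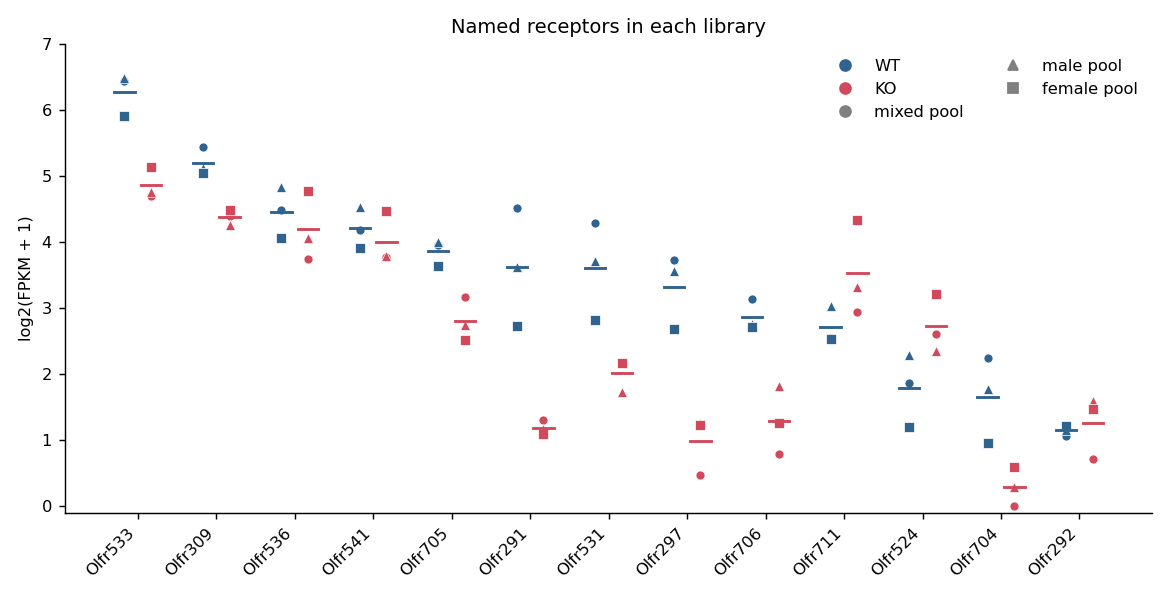
Expression of 13 receptors in each library, as log2(FPKM + 1), ordered by mean WT level; each symbol is 1 pooled library, shaped by kind of pool and coloured by genotype, and bars are group means. KO libraries lie below all WT libraries for Olfr291, Olfr297, Olfr533 and Olfr706, and above them for Olfr524. They also lie below for Olfr309, Olfr531, Olfr704 and Olfr705, which did not pass the threshold.

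Among receptors that did not pass the threshold, Olfr531 came closest. It had 18.5, 12.1 and 6.08 FPKM in WT and 3.50, 2.32 and 3.47 FPKM in KO, a log2 change of -1.59 ± 0.35 (limma adjusted p = 0.0583). Olfr704 had 3.75, 2.41 and 0.938 FPKM in WT, was listed at 0 in the KO mixed pool, and had 0.219 and 0.512 FPKM in the KO male and female pools (adjusted p = 0.0667). In both receptors the genotypes did not overlap. Olfr309, the second in abundance, had 42.5, 33.9 and 32.0 FPKM in WT and 20.0, 18.2 and 21.4 FPKM in KO, which also did not overlap. Its log2 change was -0.82 ± 0.22 (limma adjusted p = 0.135). Olfr705, beside Olfr706 in gene order, had 14.5, 14.9 and 11.4 FPKM in WT and 7.98, 5.69 and 4.74 FPKM in KO (log2 change -1.05 ± 0.26, limma adjusted p = 0.106).

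A few receptors had values on the other side. Olfr524 had 2.64, 3.88 and 1.29 FPKM in the mixed, male and female WT pools and 5.09, 4.12 and 8.30 FPKM in the KO pools. All KO pools were above all WT pools, but the male pools were nearly equal, and the log2 change of 0.94 ± 0.33 did not pass (limma adjusted p = 0.317). Olfr711 had 4.86, 7.21 and 4.81 FPKM in WT and 6.63, 9.003 and 19.1 FPKM in KO. Its genotypes overlapped, the KO female pool was the highest by far, and its log2 change was 0.82 ± 0.34 (limma adjusted p = 0.468). By mean level, Olfr711 ranked 16 in WT and 5 in KO, and Olfr524 ranked 32 and 7.

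Olfr536 and Olfr541, the abundant receptors with the smallest differences, overlapped between genotypes. Olfr536 had 21.3, 27.5 and 15.6 FPKM in WT and 12.4, 15.7 and 26.3 FPKM in KO, with a log2 change of -0.26 and a 95% interval from -0.91 to 0.38. Olfr541 had 17.1, 22.2 and 14.0 FPKM in WT and 12.6, 12.8 and 21.0 FPKM in KO, with a log2 change of -0.20 and an interval from -0.79 to 0.38. In both, the KO female pool stood above the WT female pool, while the mixed and male KO pools stood below the WT pools of their kind. Olfr292, the receptor of largest positive change in its number range, had 1.09, 1.22 and 1.33 FPKM in WT and 0.631, 2.02 and 1.77 FPKM in KO, without a detectable difference (log2 change 0.11 ± 0.26).

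The receptors fall into 6 groups along chromosome 7, where a group is a run of receptor genes with no more than 5 other genes between neighbours in the RefSeq order. Olfr291 lies apart with Olfr290. The group of Olfr292 to Olfr310 had 15 of the genes, 11 of them tested, with a median log2 change of -0.60 and 1 call, Olfr297. At an unadjusted limma p under 0.05, 5 were lower and 0 higher. The group of Olfr693 to Olfr716 had 20 genes, 17 tested, with a median of -0.84 and 1 call, Olfr706. Unadjusted, 9 were lower and 1 higher. The group of Olfr467 to Olfr519 had 42 genes but only 25 tested, with a median of -0.33 and no call (7 lower and 0 higher at an unadjusted limma p under 0.05). The group of Olfr522 to Olfr541 had 14 genes, all tested, with a median of -0.72 and 1 call, Olfr533. Here 7 were lower and 1 higher unadjusted. Olfr520 and Olfr521 form the remaining pair and were below the expression limit. Over all tested genes, 0.624% were called lower, and 4.62% were lower and 4.26% higher unadjusted. Differences between the groups were not tested.

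Log2 changes differed in sign between receptors of the same group. In the last of these large groups, Olfr524 and Olfr533 both lie among 14 tested receptors that spanned log2 changes from -1.59 to 0.94. In the group of Olfr693 to Olfr716, Olfr704, Olfr705 and Olfr706 follow each other with changes of -1.36, -1.05 and -1.58, and Olfr711 stands at 0.82. Receptors outside the number ranges are interleaved in this group. Beside Olfr711, Olfr6 had 11.9, 24.8 and 16.1 FPKM in WT and 9.45, 20.5 and 31.6 FPKM in KO. Olfr17 had 22.6, 14.2 and 3.597 FPKM in WT and 5.42, 4.54 and 7.17 FPKM in KO. The genotypes overlapped in both, and their log2 changes were 0.12 ± 0.38 and -0.83 ± 0.47. Olfr2 and Olfr1532-ps1, a pseudogene by its symbol but listed as protein coding in RefSeq, were low in all libraries, at most 3.05 and 1.603 FPKM.

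**Figure D2:**
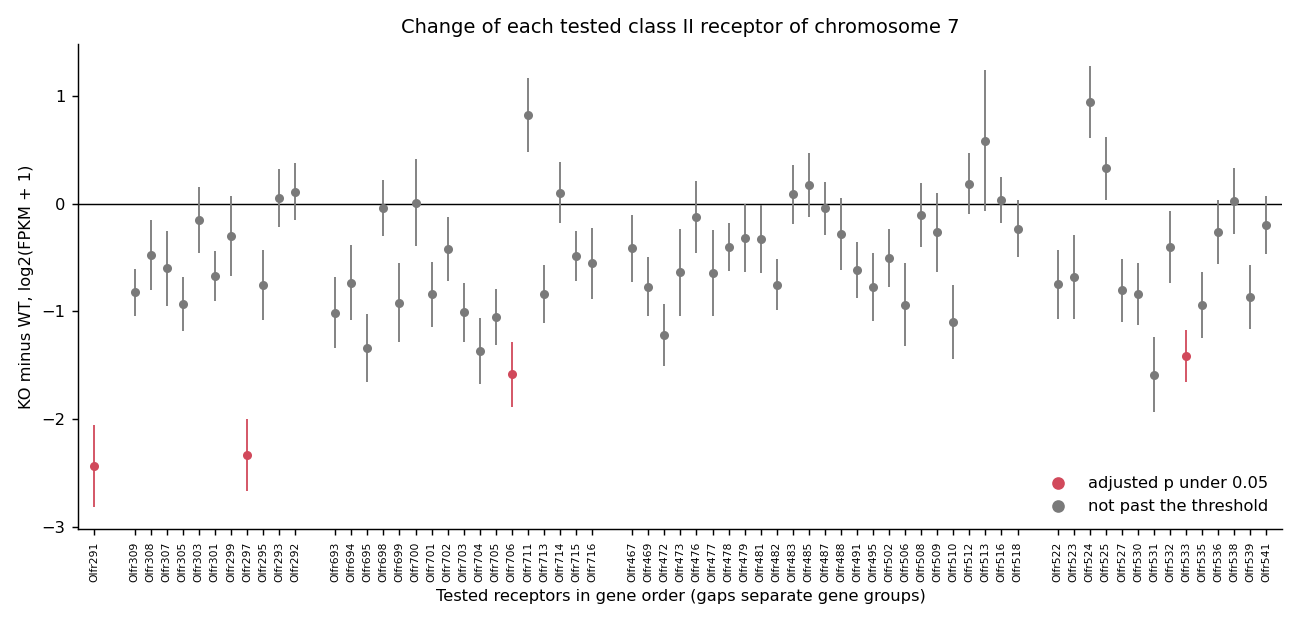
Log2 change (KO minus WT, on log2(FPKM + 1)) of the 68 tested receptors in gene order along chromosome 7; points are limma estimates, bars are ± 1 SE, and red marks an adjusted p under 0.05. The 4 red points lie in 4 different gene groups, and Olfr524 and Olfr711 stand highest at 0.94 and 0.82.

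The median log2 change of the 68 tested receptors was -0.58, beside 0.01 over all tested genes, and this direction flipped to 0.06 when libraries were scaled to the summed FPKM of 16 mature olfactory neuron genes. That scaling moved the median of all genes to 0.84, so the receptors lay 0.79 below it. The 747 other tested receptors, those in neither class I nor the set, also had a median of -0.58. Of these, 76 (10.2%) passed the threshold as lower and none as higher, where 5.88% of the set were lower. At an unadjusted limma p under 0.05, 340 of them were lower and 5 higher. The 76 tested class I receptors had a median of -0.10, and none passed (11 lower and 1 higher unadjusted). Differences between these lists were not tested.

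Summed over the 94 genes, expression was 468, 384 and 252 FPKM in the mixed, male and female WT pools and 178, 169 and 236 FPKM in the KO pools. Between pools of the same kind, KO reached 38.1% of WT for mixed, 43.99% for male and 93.97% for female pools. All KO sums lay below all WT sums, by a small margin in the female pools. Each group's mean was 368 ± 109 FPKM in WT and 195 ± 36.6 FPKM in KO (SD, n = 3). The sum of the 16 mature neuron genes for mixed, male and female pools was 38.0%, 40.5% and 85.4% of WT in KO. Between the female pools, however, only 6 of these 16 genes were lower in KO, with a median log2 difference of 0.17. Omp, a defining marker of mature neurons, had 2977, 2926 and 1800 FPKM in WT and 1220, 1209 and 2012 FPKM in KO.

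As a share of all odorant receptor FPKM, the set hardly varied. It held 10.8%, 10.6% and 9.78% in the mixed, male and female WT pools and 10.004%, 10.2% and 10.2% in the KO pools. The group means were 10.4% ± 0.54 in WT and 10.1% ± 0.10 in KO (SD, n = 3), which differed by less than the spread between WT pools. Class I receptors held 3.67% ± 0.97 in WT and 5.66% ± 1.57 in KO, and their KO sum for mixed, male and female pools was 55.1%, 50.9% and 218% of the WT sum.

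**Figure D3:**
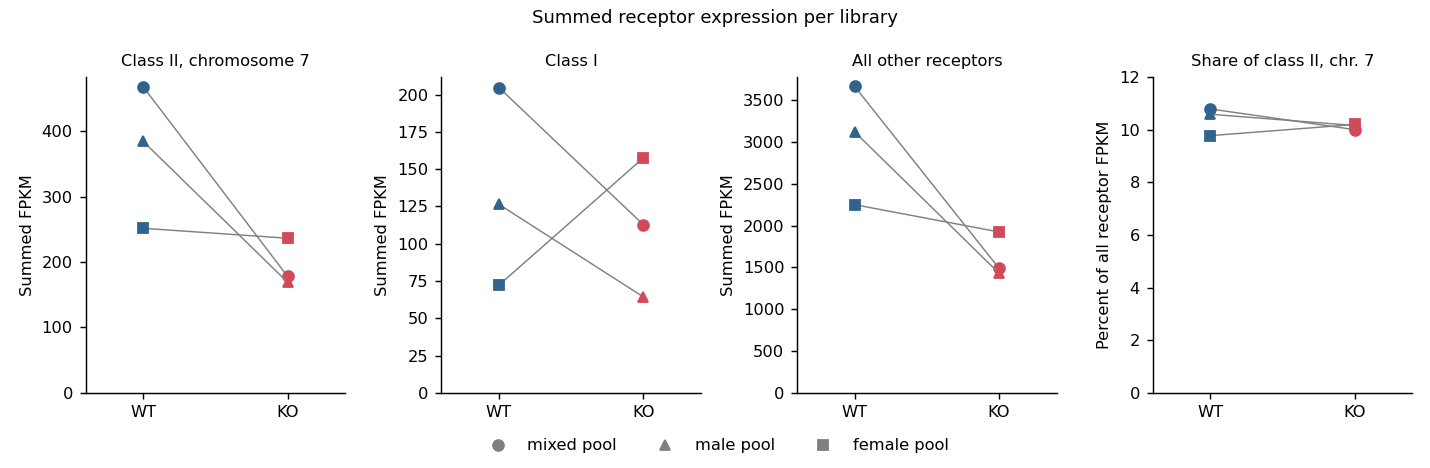
Summed FPKM per library of the 94 receptors, of class I receptors and of all other receptors, and the share of all receptor FPKM held by the 94; each symbol is 1 library, and grey lines join pools of the same kind, which are not known to share animals. The sum of the 94 falls to 38.1% and 43.99% of WT in the mixed and male pools and to 93.97% in the female pools. Its share stays between 9.78% and 10.8%. The class I sum is lower in the KO mixed and male pools and reaches 218% of WT in the female pools.

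Within that share, receptors differed in both directions. When each library was scaled to the summed FPKM of all receptors outside the set, 8 of the 68 were lower in KO, against 16.0% of the 823 other tested receptors, and 5 were higher, against 11.3%. The lower ones were the 4 above with Olfr472, Olfr531, Olfr695 and Olfr704. The higher ones were Olfr524, Olfr525, Olfr536, Olfr541 and Olfr711, and in Olfr536 and Olfr541 the sign reversed from the unscaled values. On this scale the log2 change was -1.78 ± 0.28 for Olfr291, -0.58 ± 0.13 for Olfr533, 1.61 ± 0.22 for Olfr524 and 1.55 ± 0.29 for Olfr711 (limma adjusted p = 0.00158, 0.00560, 0.00143 and 0.00251). The median was -0.02 for the set and -0.04 for the other receptors. This scaling moved the median of all genes to 0.73 and put 11528 genes past the threshold as higher, so adjustment changed p-values near the threshold little. For Olfr536 the unadjusted p was 0.0349 and the adjusted p 0.0456 (limma). As shares of the tested receptors, both counts in the set were below those of the other receptors, and the difference was not tested.

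**Figure D4:**
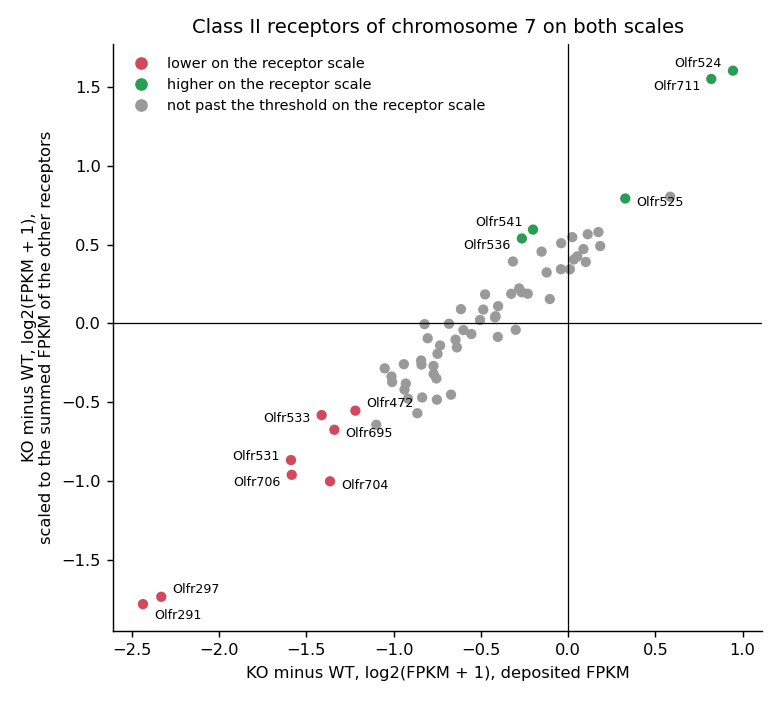
Log2 change of the 68 tested receptors on the deposited FPKM scale (x axis) and after scaling libraries to the summed FPKM of the other receptors (y axis); red and green mark adjusted p under 0.05 on the receptor scale. The whole cloud is shifted upward from negative values, with 8 receptors lower and 5 higher, and Olfr524 and Olfr711 stand apart at 1.61 and 1.55.

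RefSeq upstream windows were available for 83 of the 94 genes, and 67 of these end at the start codon and not at a transcript start. The windows of Olfr297, Olfr533 and Olfr706 were of that kind and Olfr291 had none. The 3 windows printed here are therefore those of receptors called on the receptor scale that end elsewhere, chosen after their values were seen. Each shows the 200 bases before the annotated start on the minus strand of GRCm38.p6, 5′ to 3′, and capitals mark motif matches on either strand. The motifs searched were CCCNNGGG, the core of the site bound by Ebf factors, the homeodomain-type site TAATTA with its variants ending in TTG (TAATTG) and TGA (TAATGA), and the TATA box letters TATAAA. Overlapping matches were each counted. Olfr711 at chr7:106975452-106975651 and Olfr536 at chr7:140507319-140507518 were higher on the receptor scale, and Olfr695 at chr7:106716346-106716545 was lower.
Olfr711: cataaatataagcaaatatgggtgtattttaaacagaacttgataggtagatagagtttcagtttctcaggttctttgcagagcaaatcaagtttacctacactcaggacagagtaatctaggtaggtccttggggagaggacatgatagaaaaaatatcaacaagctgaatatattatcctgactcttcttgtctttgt
Olfr536: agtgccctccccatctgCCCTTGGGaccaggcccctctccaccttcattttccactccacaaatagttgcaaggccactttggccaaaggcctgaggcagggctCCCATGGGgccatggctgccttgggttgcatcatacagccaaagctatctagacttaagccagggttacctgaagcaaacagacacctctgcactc
Olfr695: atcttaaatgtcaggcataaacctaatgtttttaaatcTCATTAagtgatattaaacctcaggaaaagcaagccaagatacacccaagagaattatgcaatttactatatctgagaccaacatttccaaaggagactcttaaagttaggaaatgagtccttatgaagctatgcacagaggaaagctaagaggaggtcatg
Over windows of 250 bases, CCCNNGGG occurred in 4.82% of the 83 genes, in 2.75% of 944 receptors and in 11.7% of 27025 genes. TAATTA occurred in 13.3%, 18.1% and 4.90% of the same windows, TAATTG in 31.3%, 22.6% and 7.34%, TAATGA in 20.5%, 25.1% and 8.77%, and TATAAA in 44.6%, 39.3% and 12.97%. Some windows do not end at a start codon. Among these, CCCNNGGG occurred in 2 of 16 genes of the set (12.5%) and in 7.36% of 258 receptors. Not every motif was more frequent there than over all windows. The windows of both kinds belong to different genes, so a dependence on where the window lies was not tested. These matches describe letters only.

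The closeness of the female pools was seen in single receptors. Of the 68 tested receptors, 59 had the lower value in KO when mixed pools were compared, 54 for male and 39 for female pools, with median differences of -0.93, -0.72 and -0.17 on the log2(FPKM + 1) scale. Over all tested genes the medians were -0.25, -0.20 and 0.48, so the female pair was shifted upward over the whole table and not in the receptors alone. A genotype effect that depended on the female share of the pool passed adjustment for none of the 68 receptors, against 0.126% of all tested genes (limma), and 6 reached an unadjusted p under 0.05, against 4.15%. These were Olfr295, Olfr481, Olfr513, Olfr524, Olfr532 and Olfr536. Each genotype had a single male and a single female pool, so a dependence on sex cannot be told from the deviation of a single pool. The female share itself passed for none of the receptors, against 0.0996% of all tested genes, with 1 at an unadjusted p under 0.05, Olfr513. Olfr513 was singled out after its values were seen. It had 7.93 FPKM in the KO female pool and at most 1.66 FPKM in any other library.

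The female WT pool stood apart from the other WT pools. Without it, 23 receptors were lower in KO, while lower genes in the whole table rose from 94 to 453. Without the WT mixed pool 10 receptors and 249 genes were lower. Without the WT male, the KO mixed or the KO female pool 2 receptors were lower, among 40, 25 and 25 genes. The summed level of 10 listed gland and secretory genes was 17189, 18788 and 63417 FPKM in the mixed, male and female WT pools and 47997, 41779 and 22950 FPKM in KO. A few abundant genes carried this sum, above all Obp1a, an odorant-binding protein of nasal glands, at 7458, 4869 and 47418 FPKM in WT and 28709, 22778 and 3038 FPKM in KO. Most of the listed genes did not follow it, since only 2 of 10 were lower in KO between the female pools (median log2 difference 1.23). In WT the pool with the most secretory FPKM had the lowest receptor sum, in KO the pool with the least had the highest, and FPKM are relative to all fragments of a library. The part of the secretory transcripts in the receptor differences was not tested. With libraries scaled by their median ratio over genes, 10 receptors were lower and none higher (adjusted p under 0.05, limma), with a median of -0.56, while 186 genes of the whole table were lower and 82 higher.

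Lists of other cell types and of the pathway around the receptors were counted for comparison. Of 16 mature neuron genes 1 was lower and of 15 genes of the odor transduction cascade none passed, with medians of -0.74 and -0.70 (9 and 8 lower at an unadjusted limma p under 0.05). None of 18 genes of receptor choice and transport passed, with a median of -0.27 (1 lower unadjusted). None of 11 immature neuron genes, 7 sustentacular genes, 4 horizontal basal cell genes, 8 macrophage genes and 3 tested vomeronasal genes passed, with medians of -0.01, -0.15, 0.71, 0.79 and 0.21. All 8 macrophage and 2 of 4 basal cell genes were higher at an unadjusted p under 0.05. Of the 10 gland genes 1 was higher, with a median of 0.88. Slc12a2, the targeted gene, had 83.3, 40.2 and 36.0 FPKM in WT and 28.0, 16.1 and 18.0 FPKM in KO, without overlap (log2 change -1.26 ± 0.32, limma adjusted p = 0.111, exact two-sided permutation p = 0.1, the smallest that 3 against 3 libraries allow).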

How the data were processed

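Values are FPKM per gene symbol and library, as deposited by the authors, with the unit taken from the table's header form and values. Per the submitters' processing notes, TopHat2 2.0.7, Bowtie, Cufflinks 1.3.3 and Cuffdiff were used with build mm9; settings not given in the sources used here. Per the labels' protocols, libraries were normalized with duplex-specific nuclease. Columns naming no sex were taken as the mixed pools by elimination. Of 22310 rows, 429 repeats of a symbol were left out, none of them in the set. Fragment values were estimated from low FPKM, so depth is approximate.

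Genes averaging 0.5 FPKM or more were tested as log2(FPKM + 1) using limma 3.58.1 (R 4.3.3; mean-dependent prior variance) with Benjamini-Hochberg adjustment over 15067 genes; the model was checked on simulated data. Sums were described without a test. Sequences came from GENCODE M21 and RefSeq.

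The receptors, lists and rules were chosen with earlier results of these data known. Named are the receptors past the threshold, the 6 of highest mean, and per number range the 2 of smallest p and the 1 of largest positive change among those averaging 1 FPKM or more. Relatives, neighbours and receptors called only on another scale were named after their values were seen. Alternatives covered pseudocount, filter, scaling, prior variance, kind of pool, sex and each library left out.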

Additional observations from a re-analysis of the deposited data

How the results depend on the processing

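The 4 lower and 0 higher receptors were unchanged with pseudocounts of 0.1 and 0.5, filters at a mean of 1 and 2 FPKM, one prior variance and summed symbol rows. Without a filter 0 of 91 were lower. Median-ratio and quantile scaling gave 10 lower each (186 and 178 of all genes), and the female share as a covariate gave 7 (142). Scaled to the mature neuron list, 6 were lower and 5 higher (127 and 12032 of all genes). The median was then 0.0593, beside 0.84 over all genes, and the changes of Olfr309 (0.12), Olfr536 (0.66) and Olfr541 (0.72) turned positive. Scaled to the other receptors, 8 were lower and 5 higher (164 and 11528 of all genes). The median was then -0.0224, beside 0.73 over all genes, and Olfr536 and Olfr541 stood at 0.54 and 0.60. Without both mixed pools 12 were lower and 2 higher (198 and 150 of all genes). Leaving out 1 library gave 2 to 23 lower (25 to 453 of all genes) and 0 to 1 higher, and medians from -0.71 to -0.28; Olfr292 then ranged from -0.0574 (without the KO male pool) to 0.388. With the kind of pool as a replicate block 14 were lower, while lower genes in the whole table rose from 94 to 290 and higher ones from 32 to 150. Deviations of same-kind pools correlated at 0.36 (mixed), 0.21 (male) and -0.09 (female). The mixed pair had the highest value of all pairs, but WT female with KO male reached 0.31, so pairing by kind was uneven. Slc12a2 stayed at -1.26 and passed with the block (adjusted p = 0.00822) and with the female share (0.0427), and was -1.48 (0.00502) without the WT female pool; it was -0.31 (0.399) scaled to the mature neuron list and -0.43 (0.181) scaled to the other receptors, and leaving out 1 library gave -1.49 to -0.89. Without the 3 most abundant receptors, sums were 233 (WT) and 128 FPKM (KO), and shares 6.48% and 6.67%; with tested receptors only, the KO share was 9.87%. The causes were not tested. Low values in the shallow mixed pools limit receptors under 1 FPKM, and also the called Olfr297 and Olfr706 in the KO mixed pool.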
